A study of Mus musculus with 2 samples.

Results

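Brush border peptidases are enzymes of the apical membrane of absorptive cells that cut peptides at the surface of the gut. The members were 9 genes chosen by symbol, Anpep, Enpep, Dpp4, Naaladl1, Xpnpep2, Ace, Mep1a, Mep1b and Mme, of 43346 annotated genes in the gene tables. All 9 were found in both libraries by their gene identifiers. The choice used no measured value of its own, but it was made with earlier results of these data known.

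Microvilli carry these enzymes as ectoenzymes, with the catalytic part facing the lumen. Endopeptidases cut inside a peptide chain, aminopeptidases and dipeptidyl peptidases trim it from the amino end, and carboxypeptidases from the other end, until free amino acids and short peptides are left for the transporters of the same membrane. Several of these enzymes also shorten hormones and vasoactive peptides, and several are made outside the epithelium too, by vessel, stromal, immune or kidney cells.

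The samples were 2 libraries of polyA-selected RNA, longer than 200 nt and read as stranded pairs of 76 nt. The tissue was labelled large intestine and came from C57BL/6J mice, an inbred strain, with no treatment named, aged 8 weeks and described as littermates of both sexes. Both replicates belong to 1 group and are recorded under a single donor record, so there is no comparison between conditions, and a difference between them is 1 library against 1, with no replicate check and no p-value. How many animals went into each replicate was not given in the sources used here.

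Depth was 50189619 expected counts in replicate 1 and 58233142 in replicate 2. A chi-square test of each of 17110 genes put 65.4% of them past the 95% limit that counting error allows, so the pair is no duplicated library. Marker genes bore out the tissue label only in part, and they set the libraries apart by sex. Levels are given as TPM, the length-corrected share of each transcript scaled to a common total, and a gene is called detected when neither library has it under 1 TPM. Of 6 colonocyte markers 3 were detected, while Car1, Aqp8 and Atp12a lay at 0.27 TPM or below. Expected counts of 4 genes on the Y chromosome came to 2741 (replicate 1) against 3 (replicate 2), and those of Xist to 17 against 12563. Replicate 1 thus had the pattern of male tissue and replicate 2 that of female tissue, so the pair holds both sexes. Neither library was an even mix of the sexes, and sex and library cannot be told apart. Markers of 2 regions of the small intestine also set the libraries apart. The 6 proximal enterocyte genes summed to 1852 TPM in replicate 1, compared with 293 TPM in replicate 2, and the 5 ileal enterocyte genes to 1094 and 6353 TPM. By mean the largest items were Apoa4, at 1094 and 91.1 TPM, and Fabp6, at 477 and 5279 TPM. All 6 proximal genes were lower in replicate 2, 5 of them at least 2-fold. All 5 ileal genes were higher there, 3 at least 2-fold. Of all genes with a mean of at least 1 TPM, 66.5% were lower in replicate 2. At least 2-fold lower there were 4.46% and at least 2-fold higher 1.18%. Values are therefore given for each library, and the tissue name is used as a label only.

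Sequences are shown for the places where the transcript tables separate 1 form of a peptidase gene from another. Ace and Anpep each have more than 1 start site, and 1 of their starts held most of the transcripts of the gene. The 250 bases before the start, from RefSeq on GRCm38.p6 (mm10), are given 5′ to 3′ on the gene's strand. Capitals mark the motifs found. Ace somatic lies at chr11:105967698-105967947 on the plus strand, Ace germ cell at chr11:105974939-105975188 on the plus strand, Anpep upstream at chr7:79848211-79848460 on the minus strand and Dpp4 at chr2:62412232-62412481 on the minus strand. Dpp4 is added as a gene with 1 main start.
Ace somatic: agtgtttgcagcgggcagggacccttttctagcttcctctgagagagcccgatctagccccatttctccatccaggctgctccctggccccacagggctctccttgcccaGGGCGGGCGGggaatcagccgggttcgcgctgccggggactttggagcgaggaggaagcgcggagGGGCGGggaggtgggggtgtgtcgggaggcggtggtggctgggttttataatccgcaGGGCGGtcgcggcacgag
Ace germ cell: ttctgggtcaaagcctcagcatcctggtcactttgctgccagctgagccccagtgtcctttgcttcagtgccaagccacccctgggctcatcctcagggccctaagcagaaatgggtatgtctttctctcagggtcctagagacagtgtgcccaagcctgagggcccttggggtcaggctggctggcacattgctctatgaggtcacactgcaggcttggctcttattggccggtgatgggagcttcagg
Anpep upstream: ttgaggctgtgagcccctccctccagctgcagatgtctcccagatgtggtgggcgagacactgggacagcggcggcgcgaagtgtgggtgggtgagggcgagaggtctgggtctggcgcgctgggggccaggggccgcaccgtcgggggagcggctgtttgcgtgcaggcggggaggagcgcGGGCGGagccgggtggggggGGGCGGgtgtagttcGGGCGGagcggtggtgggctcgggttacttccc
Dpp4: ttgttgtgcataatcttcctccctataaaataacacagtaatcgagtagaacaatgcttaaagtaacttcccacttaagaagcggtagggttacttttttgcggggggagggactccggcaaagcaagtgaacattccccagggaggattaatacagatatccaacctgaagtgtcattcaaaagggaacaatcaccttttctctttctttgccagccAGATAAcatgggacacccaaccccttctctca

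The search covered 5 motifs on both strands. GGGCGG, the GC box, occurred in 32.7% of the 32851 promoters of the same length, AGATAA, the core of GATA factor sites, in 9.99%, TTTATG, that of CDX factors, in 10.8%, CAAAGTNCA, of HNF4, in 1.19% and the longer HNF1 motif in 0.00913%. The Ace somatic promoter held 4 GC boxes, beginning 140, 136, 75 and 18 bases before the start, the first of which overlaps the next. The Anpep upstream promoter held 3, at 68, 48 and 33 bases. The Ace germ cell promoter held none of the 5 motifs, and Dpp4 held AGATAA alone, at 32 bases. The GC content was 67.2% in the Ace somatic window, 72.8% in the Anpep upstream window, 58.0% in the Ace germ cell window and 43.6% in the Dpp4 window, against a median of 52.4% over all promoters. Of the 9 members 7 had an entry. The windows of Enpep, Mep1a and Xpnpep2, not shown, held none of the 5 motifs, and those of Mme held GC boxes alone. A match is a run of letters and no evidence of binding.

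The second set of sequences is the end of 2 short transcripts whose share differed between the libraries. Each line gives 40 bases of the shared exon in lower case, followed in capitals by bases that the main transcript of the gene does not hold. For Enpep-203 these are the first 60 of 236 bases read into intron 10 (chr3:129298594-129298829, minus strand), and for Xpnpep2-204 all 32 bases of an exon inside intron 2 (chrX:48112123-48112154, plus strand). They come from the GENCODE M21 transcript sequences.
Enpep-203: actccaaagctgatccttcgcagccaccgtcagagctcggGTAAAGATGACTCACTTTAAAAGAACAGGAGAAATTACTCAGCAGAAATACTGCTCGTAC
Xpnpep2-204: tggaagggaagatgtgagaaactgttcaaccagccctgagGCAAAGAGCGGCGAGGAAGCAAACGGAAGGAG

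All 9 peptidase genes passed 1 TPM in each library, against 29.9% of all annotated genes. Of these, 8 lay above 50 TPM in each library and Mme lay lower. Together they held 5443 (replicate 1) and 3992 TPM (replicate 2), a mean of 4717 TPM ± 1026 (SD, n = 2), or 0.544% and 0.399% of all transcripts. Anpep and Naaladl1 made up most of this sum, with 75.2% of it in replicate 1 and 77.9% in replicate 2. In bulk tissue, fewer cells of a type and less RNA per cell cannot be told apart.

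**Figure D1:**
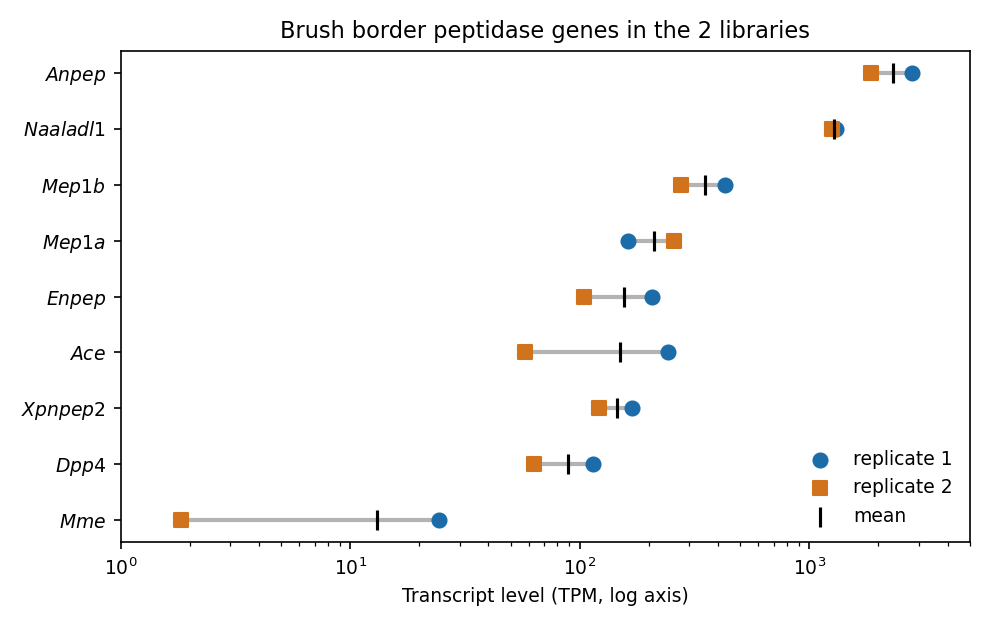
Transcript level in TPM (log axis) of each of the 9 peptidase genes, ordered by mean. Circles are replicate 1, squares replicate 2, and the black tick is their mean. Anpep and Naaladl1 lie at 1258 TPM or above in both libraries, and Mme is the lowest gene in both.

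Among the aminopeptidases, Anpep was the highest. Anpep encodes aminopeptidase N, which removes neutral residues from the amino end and is one of the main proteins of the intestinal microvillus (ENSMUSG00000039062.11, chromosome 7, 79821803 to 79861059, minus strand, mm10). Replicate 1 had 2790 TPM, from 396561 expected counts, and replicate 2 had 1852 TPM, from 343375. It held rank 41 among all annotated genes in replicate 1 and rank 67 in replicate 2. Its lower value still lay above the higher value of every other member.

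Enpep encodes aminopeptidase A, which takes off acidic residues and turns angiotensin II into angiotensin III (ENSMUSG00000028024.10, chromosome 3, 129269175 to 129332720, minus strand). It was at 207 TPM in replicate 1 against 105 TPM in replicate 2, from 30942 and 22791 expected counts. Anpep exceeded Enpep 13.5-fold in replicate 1 and 17.7-fold in replicate 2, both per length.

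Xpnpep2 encodes the membrane-anchored aminopeptidase P, which cuts before a proline in the second position and degrades bradykinin (ENSMUSG00000037005.12, chromosome X, 48108725 to 48136981, plus strand). It was at 168 TPM in replicate 1, compared with 122 TPM in replicate 2, while its expected counts went the other way, from 18846 to 22868. A short transcript, Xpnpep2-204, differed along with this gap, and its values are given with the transcripts.

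Dpp4 encodes dipeptidyl peptidase IV, a serine peptidase that removes dipeptides ending in proline or alanine and inactivates incretin hormones (ENSMUSG00000035000.8, chromosome 2, 62330073 to 62412231, minus strand). It was at 114 (replicate 1) and 63.3 TPM (replicate 2), from 24687 and 18038 expected counts. T cells also make Dpp4. All 6 T cell markers were detected, with a sum of 46.8 TPM in replicate 1 against 47.8 TPM in replicate 2, and 3 of the 6 were lower in replicate 2. Their part in the Dpp4 difference was not tested.

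Naaladl1 encodes a relative of glutamate carboxypeptidase II (ENSMUSG00000054999.2, chromosome 19, 6105782 to 6115792, plus strand). It was at 1304 TPM in replicate 1, compared with 1258 TPM in replicate 2, from 131498 and 165431 expected counts, the closest pair of values among the members by TPM. Its rank was 90 in replicate 1 and 98 in replicate 2. Folh1, the gene of glutamate carboxypeptidase II itself, had 3 and 4 expected counts, or 0.03 TPM in each library.

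Ace, the gene of angiotensin-converting enzyme, differed more between the libraries than any member but Mme. The enzyme removes dipeptides from the carboxyl end and makes angiotensin II, in vessel walls as well as in the brush border (ENSMUSG00000020681.10, chromosome 11, 105967945 to 105989964, plus strand). Replicate 1 held 48244 expected counts of Ace (242 TPM) and replicate 2 held 14941 (57.9 TPM). It was the member in place 4 in replicate 1 and in place 8 in replicate 2. All 7 blood endothelium markers were detected, with a sum of 124 (replicate 1) and 120 TPM (replicate 2), while Ace was 4.18-fold apart. Egfl7, at 58.9 and 65.9 TPM, was the largest item of that sum and the only marker higher in replicate 2. The other 6 were lower, Cdh5 by 1.46-fold and Kdr by 1.47-fold among them, and the median log2 ratio of the 7 was -0.23. The part of vessel cells in the Ace difference was not tested.

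Among the 3 endopeptidase members the meprin genes were the highest. Mep1b encodes meprin beta, which sits in the membrane, and Mep1a encodes meprin alpha, which is shed unless it pairs with beta; both are zinc enzymes of the astacin family. Mep1b (ENSMUSG00000024313.7, chromosome 18, 21061923 to 21100199, plus strand) was at 430 TPM in replicate 1 against 275 TPM in replicate 2. Mep1a (ENSMUSG00000023914.12, chromosome 17, 43474324 to 43502812, minus strand) was at 163 TPM in replicate 1, compared with 257 TPM in replicate 2, the only member higher in replicate 2 by TPM. Expected counts were 39432 and 32935 for Mep1b and 19478 and 40265 for Mep1a. The ratio of beta to alpha, per length, was thus 2.64 in replicate 1 and 1.07 in replicate 2.

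Mme encodes neprilysin, a zinc endopeptidase of many peptide hormones (ENSMUSG00000027820.8, chromosome 3, 63241537 to 63386030, plus strand). Replicate 1 held 3510 expected counts of Mme (24.3 TPM) and replicate 2 held 538 (1.84 TPM). Its rank among all annotated genes was 4297 in replicate 1 and 11855 in replicate 2. Stromal cells and granulocytes can also make Mme. The 6 fibroblast markers, all detected, summed to 285 (replicate 1) and 296 TPM (replicate 2), while none of the 5 granulocyte markers reached 1 TPM in both libraries, with sums of 1.58 and 0.67 TPM and Elane at 0 counts in each. Of the fibroblast markers 3 were lower and 3 higher in replicate 2, and their part in the Mme difference was not tested.

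By mean TPM the order was Anpep, Naaladl1, Mep1b, Mep1a, Enpep, Ace, Xpnpep2, Dpp4 and Mme. The ranges of Anpep, Naaladl1 and Mep1b overlapped those of no other member, and Mme lay below all others. Mep1a, Enpep, Ace and Xpnpep2, with means of 210, 156, 150 and 145 TPM, overlapped each with the next. The range of Ace also covered that of Dpp4, with a mean of 88.7 TPM, so the order of these 5 genes is not fixed by the libraries.

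Between the libraries, 8 of the 9 members were lower in replicate 2 by TPM, which 66.5% of the 13512 genes with a mean of at least 1 TPM were as well. On the scale of log2(TPM + 1), replicate 2 over replicate 1, the median of the members was -0.64 and that of all 13512 genes was -0.14. With TMM-scaled counts the median of all genes was 0.01, 6 members were lower in replicate 2 and so were 48.5% of all genes. With FPKM 7 members and 49.7% of all genes were lower. At least 2-fold apart were 2 members, Mme and Ace, both lower in replicate 2, and 5.64% of all genes (4.46% lower and 1.18% higher in replicate 2). Of those genes 79.1% were lower in replicate 2 by TPM, against 67.4% by FPKM and 66.3% relative to the median of the epithelium list. Mme had a log2 ratio of -3.15 and Ace of -2.05. Enpep at -0.98 and Dpp4 at -0.84 came closest to the 2-fold limit without passing it. The proximal enterocyte sum given above was also lower in replicate 2 and the ileal sum higher, and their part in these ratios was not tested.

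The remaining log2 ratios were -0.64 for Mep1b, -0.59 for Anpep, -0.46 for Xpnpep2, -0.05 for Naaladl1 and 0.66 for Mep1a. Naaladl1 lay above the median of all genes, by 0.09, while Mep1a lay 0.80 above it.

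Shares of all expected counts, which leave out the length correction, gave 6 members lower and 3 higher in replicate 2. By these shares 49.0% of the 13512 genes were lower in replicate 2, with a median log2 ratio of 0.008. Mme was 7.57-fold lower in replicate 2 (95% exact binomial interval 6.91 to 8.30) and Ace 3.75-fold lower (3.68 to 3.82). Dpp4 was 1.59-fold lower (1.56 to 1.62) and Enpep 1.58-fold lower (1.55 to 1.60). Mep1a was 1.78-fold higher (1.75 to 1.81), Naaladl1 1.08-fold higher (1.08 to 1.09) and Xpnpep2 1.05-fold higher (1.03 to 1.07). These intervals cover counting error only and not the spread between animals.

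**Figure D2:**
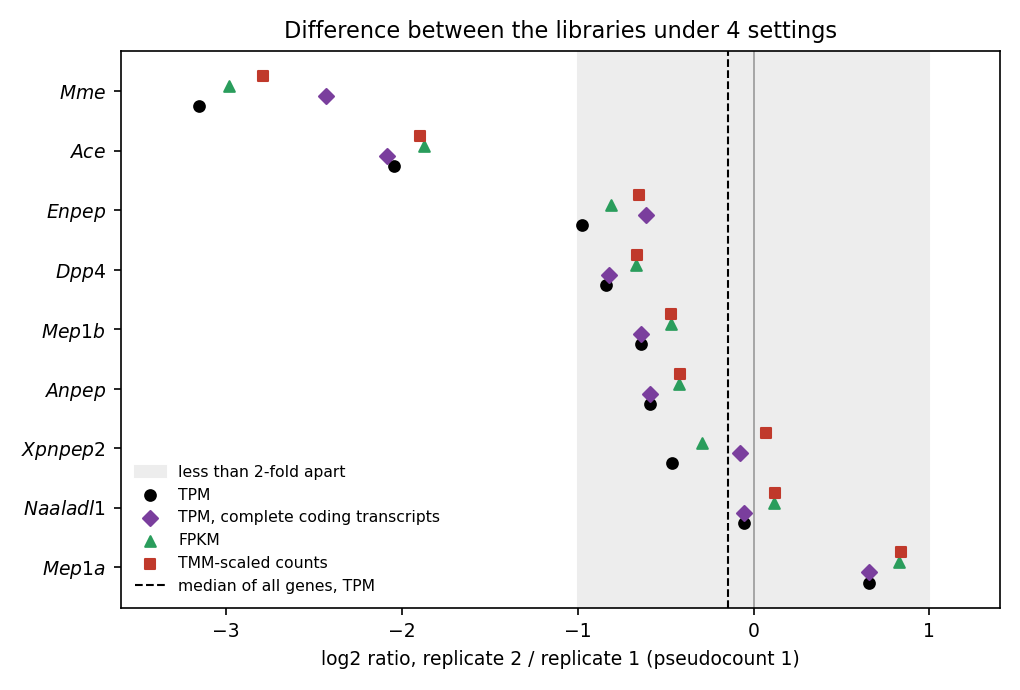
The log2 ratio of replicate 2 over replicate 1 (pseudocount 1) for each member, by TPM, by TPM of complete coding transcripts, by FPKM and by TMM-scaled counts. Grey marks less than 2-fold, and the dashed line is the median of all genes by TPM, -0.14. Mme and Ace lie outside the grey band under each of the 4 settings, and Xpnpep2 and Naaladl1 change side.

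The transcript tables list 37 transcripts of the members, of which 30 had expected counts above 0 in either library. Mep1b and Naaladl1 have 1 transcript each. Of the other 7 genes, 6 had the same most abundant transcript in both libraries, against 88.3% of the 6751 genes that have several transcripts and average 5 TPM or more. Mme was the exception. A transcript share that differed by over 20 percentage points between the libraries was seen in 3 of the 7 members, Enpep, Xpnpep2 and Mme, and in 10.8% of the 6751 genes.

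Anpep was almost wholly Anpep-201, at 99.47% of the gene's TPM in replicate 1 and 99.52% in replicate 2. This transcript starts 5858 bases downstream of the upstream promoter shown above. Anpep-202, which starts at that promoter, held 0.53% in replicate 1 from 2343 expected counts and 0.48% in replicate 2 from 1826. Myeloid cells and fibroblasts are known to use the upstream start. The 6 macrophage markers, all detected, summed to 234 TPM in replicate 1 against 209 TPM in replicate 2. Of these markers 5 were lower in replicate 2, Adgre1 by 1.67-fold and Csf1r by 1.52-fold among them. Anpep-202 was at 14.8 TPM and 8.83 TPM, and the part of these cells in it was not tested.

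Ace was mostly the somatic form, the long enzyme with a pair of catalytic domains. Ace-201 starts at the somatic promoter shown above and held 84.6% in replicate 1 and 82.1% in replicate 2. Ace-203, whose start is marked as not found in the annotation, held 15.4% and 17.9%. Ace-202, the germ cell form with a single catalytic domain, starts from the promoter inside intron 12 of Ace-201, 7241 bases downstream, and was listed at 0 counts in both libraries. Of 4 male germ cell markers none reached 1 TPM in both libraries, with sums of 0.06 and 0.93 TPM and Tnp1 at 0 counts in each. The somatic shares were alike in both libraries while the level of the gene was not.

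In Enpep the complete transcript Enpep-201 held 68.9% in replicate 1 and 88.8% in replicate 2. Enpep-203 follows Enpep-201 through exon 10 and then reads on into intron 10, as in the sequence above. It held 22.3% in replicate 1 from 4016 expected counts and 0.75% in replicate 2 from 88.8. Enpep-205, annotated as a target of nonsense-mediated decay, held 8.25% and 9.36%. Counting Enpep-201 alone, the level was 143 TPM in replicate 1, compared with 92.9 TPM in replicate 2, which is 1.54-fold apart in place of 1.98-fold for the whole gene.

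In Xpnpep2 the share of the main transcript by TPM was also higher in replicate 2. Xpnpep2-201 held 73.8% in replicate 1 and 95.2% in replicate 2. Xpnpep2-204, a noncoding transcript of 380 nt that ends with the 32 bases shown above, held 24.0% in replicate 1 and was listed at 0 in replicate 2. That share came from 300 expected counts, 1.59% of those of the gene, because TPM divides by a short effective length. Complete coding transcripts alone gave 128 (replicate 1) and 121 TPM (replicate 2), a 1.06-fold difference in place of 1.38-fold.

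Mme was divided among several transcripts. Mme-203, a fragment of 629 nt whose end is marked as not found, held 36.6% in replicate 1 from 164 expected counts and 0 in replicate 2. Mme-201, a complete form, held 32.8% in replicate 1 and 58.4% in replicate 2, and Mme-205, complete with a longer transcript of 8039 nt, 24.1% and 37.5%. Complete coding transcripts of Mme came to 13.9 TPM in replicate 1 against 1.77 TPM in replicate 2, which is 7.88-fold apart in place of 13.2-fold. By expected counts Mme-205 was the first in both libraries, with 2025 and 312. Replicate 2 rests on 538 expected counts for the gene, so its shares are the least precise of the members.

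Mep1a was divided between 2 annotated coding transcripts of 14 exons each, with nearly the same start. Mep1a-202, of 2967 nt, holds 46 nt outside the exons of Mep1a-201, of 2921 nt. The split between them rests on these few bases. Mep1a-201 held 89.7% in replicate 1 and 79.8% in replicate 2, and Mep1a-202 held 10.1% and 20.1%. In expected counts Mep1a-202 had 2001 and 8219. Dpp4 was at 96.5% and 97.4% Dpp4-201, with its other forms under 2% each.

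**Figure D3:**
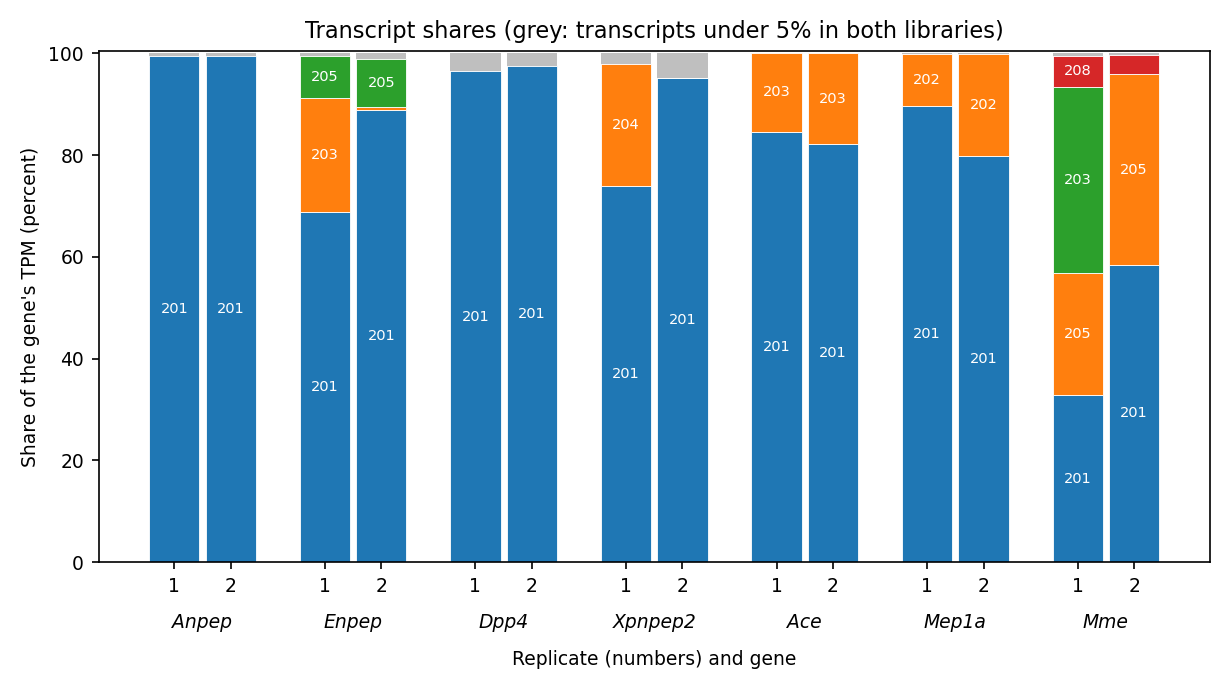
Share of each gene's TPM held by its transcripts, in percent, for the 7 members with more than 1 transcript; the left bar of each pair is replicate 1 and the right bar replicate 2, and numbers inside the bars are transcript names. Enpep-203, Xpnpep2-204 and Mme-203 are seen in replicate 1 and are at 0.75% or less in replicate 2.

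Other apical peptidases were detected in 3 of 5 cases, and none of these was 2-fold apart by TPM or with TMM-scaled counts. Ggt1, which splits the gamma-glutamyl bond of glutathione, was at 478 TPM in replicate 1, compared with 301 TPM in replicate 2, and Dpep1, a dipeptidase, at 346 and 299 TPM. Tmprss15, the gene of enteropeptidase, which activates trypsinogen in the duodenum, had 0 expected counts in both.

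Among 24 genes related to the members by family, 10 were detected in both libraries. Of these 1, Xpnpep1, was at least 2-fold lower in replicate 2, as were 4.46% of all genes. Xpnpep1, the cytosolic relative of Xpnpep2, was at 655 TPM in replicate 1 against 292 TPM in replicate 2, above Xpnpep2 in each. It was not 2-fold apart with TMM-scaled counts. The highest of 4 other families were Rnpep at 81.2 TPM ± 4.78 (SD, n = 2), Dpp9 at 28.4 ± 3.01 TPM, Ece1 at 20.7 ± 3.11 TPM and Bmp1 at 12.3 ± 0.785 TPM. By library, Rnpep was at 84.5 (replicate 1) and 77.8 TPM (replicate 2), Dpp9 at 30.55 and 26.3 TPM and Bmp1 at 12.9 and 11.8 TPM. Rnpep lay under Anpep, Dpp9 under Dpp4 and Bmp1 under both meprins in each library. Ece1, at 22.9 and 18.5 TPM, lay under Mme in replicate 1 and above it in replicate 2. Complete coding transcripts of Mme alone, at 13.9 and 1.77 TPM, lay under the whole-gene value of Ece1 in each library.

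Transcripts of genes for the uptake that follows peptide cutting were also present. All 10 genes of peptide and amino acid uptake were detected, and 4 were at least 2-fold lower in replicate 2, against 4.46% of all genes. Slc15a1, the transporter of dipeptides and tripeptides, was at 256 TPM in replicate 1, compared with 54.6 TPM in replicate 2, and Slc6a19, a carrier of neutral amino acids, at 571 and 230 TPM. Slc7a8, at 102 and 29.9 TPM, and Slc36a1, at 55.4 and 14.2 TPM, were the others. Slc7a9, of the cystine carrier, was at 361 and 315 TPM. The median log2 ratio of this list was -0.64. With TMM-scaled counts 3 of the 10 were 2-fold apart, against 3.80% of all genes.

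All 14 cytosolic peptidases were detected and 1, Xpnpep1, was at least 2-fold lower in replicate 2, as were 4.46% of all genes. Pepd, which splits dipeptides ending in proline, was at 514 and 259 TPM. The list had a median log2 ratio of -0.31, and with TMM-scaled counts none was 2-fold apart. All 12 lysosomal peptidases were detected and none was 2-fold apart, with a median of -0.16. Ctsd, of cathepsin D, averaged 254 TPM ± 4.24 (SD, n = 2), at 257 (replicate 1) and 251 TPM (replicate 2). Ctsz, of cathepsin Z, averaged 237 TPM ± 35.4 (SD, n = 2), at 262 and 212 TPM.

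Genes of the brush border outside peptide digestion are given beside the members. Of all genes 4.46% were at least 2-fold lower in replicate 2. All 4 disaccharidase genes were at least 2-fold lower in replicate 2, with a median log2 ratio of -1.81. Sis, of sucrase-isomaltase, was at 281 and 79.7 TPM and Mgam, of maltase-glucoamylase, at 215 and 84.8 TPM. Lct was at 152 and 9.94 TPM and Treh at 72.6 and 20 TPM. Sis and Lct are also among the proximal enterocyte markers, so these lists are not independent. Among 10 microvillus genes 3 were at least 2-fold lower in replicate 2, Vil1, Eps8 and Myo7b, with a median of -0.73. Eps8, which caps actin filaments, was at 52.0 and 23.7 TPM and Myo7b, a motor of the microvillus tip, at 81.6 and 36.9 TPM. Vil1, of the actin bundler villin, was at 794 (replicate 1) and 381 TPM (replicate 2). Cdhr5, a cadherin that links microvilli and the second highest of the list, was at 408 and 469 TPM, the only one of the 10 higher in replicate 2. The 7 epithelium markers, all detected, summed to 10173 and 9043 TPM, with 1 of them, Krt20, over 2-fold lower at 700 and 335 TPM and a median of -0.16. With TMM-scaled counts the 4 disaccharidase genes were still 2-fold apart, and none of the microvillus or epithelium genes was. Of all genes 3.80% were 2-fold apart with TMM-scaled counts. The part of these differences in the values of the members was not tested.

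**Figure D4:**
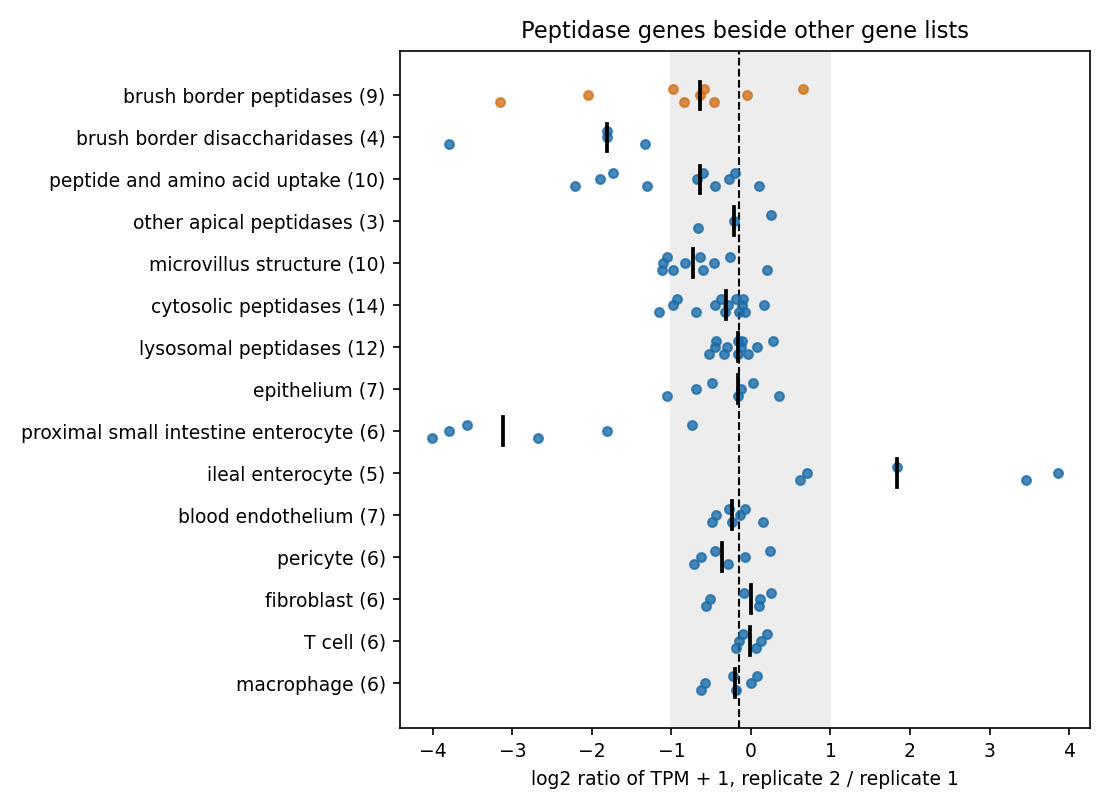
The log2 ratio of TPM + 1, replicate 2 over replicate 1, for each gene (points) of the peptidases and of 14 other lists, with the number of genes in parentheses; black bars are medians, grey marks less than 2-fold and the dashed line is the median of all genes, -0.14. The peptidases spread from -3.15 to 0.66, the proximal enterocyte genes have a median of -3.12 and the ileal genes of 1.84.

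Intestinal transcription factors were all detected, 13 of 13. Hnf4a and Elf3, the highest by mean, were at 311 TPM ± 56.8 and 247 TPM ± 24.6 (SD, n = 2). By library, Hnf4a was at 351 (replicate 1) and 271 TPM (replicate 2), and Elf3 at 230 and 265 TPM. The 3 at least 2-fold lower in replicate 2 were Hnf4g at 92.9 and 27.1 TPM, Gata4 at 52.9 and 7.45 TPM and Maf at 32.1 and 15.4 TPM. Gata4 is also among the proximal enterocyte markers. None was 2-fold higher. Of all genes 4.46% were at least 2-fold lower and 1.18% at least 2-fold higher in replicate 2 by TPM. With TMM-scaled counts 2 of the 13 were 2-fold apart, against 3.80% of all genes.

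Substrates of the members were measured as transcripts of peptide hormones. Of 9 such genes all were detected, 2 were at least 2-fold higher in replicate 2 and 1 was at least 2-fold lower. Of all genes 1.18% were at least 2-fold higher there and 4.46% at least 2-fold lower. With TMM-scaled counts 4 of the 9 were 2-fold apart, and so were 3.80% of all genes. Pyy, whose peptide is trimmed by Dpp4, was at 169 TPM in replicate 1 against 437 TPM in replicate 2, and Tac1, of substance P, a neprilysin substrate, at 7.75 and 26.6 TPM. Gip, of an incretin, was at 36.0 and 10.5 TPM, and Sst at 60.6 and 96.6 TPM. Among 8 genes of the renin-angiotensin system outside the members 4 were detected, led by Agt at 13.5 and 20.7 TPM and Lnpep at 5.12 and 2.27 TPM, and none was 2-fold apart on the log2(TPM + 1) scale.

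Markers of other cells that make some of these enzymes are given here. The 6 pericyte markers, all detected, summed to 79.6 TPM in replicate 1, compared with 71.1 TPM in replicate 2. Of these 5 were lower in replicate 2, Abcc9 by 1.89-fold and Notch3 by 1.84-fold among them, with a median log2 ratio of -0.37 for the list, and their part in the values of the members was not tested. Of 4 kidney proximal tubule markers none was detected at 1 TPM, with Slc22a6 at 0 counts in both libraries and sums of 0.55 and 0.73 TPM. Of the genes that overlap a member on the opposite strand, Gm11651 across Ace and Gm6378 across Mep1b had 0 expected counts in both libraries and Gm13561 across Dpp4 had 1 and 0. Gm42628 across Enpep was not among the features measured. Neither was Gm44974, which overlaps Anpep on the same strand, so its part in the Anpep counts was not tested.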

How the data were processed

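The 2 libraries of 1 group were described, with replicate numbers from the labels. The authors deposited expected counts per gene and per transcript, estimated and not always whole, on mm10 with GENCODE M4, per the notes beside the files. The aligner and the quantification program were not given in the sources used here. TPM and FPKM values are also the authors', TPM scaled to a fixed total that includes spike-ins; FPKM served as an alternative. The percent of a gene's TPM per transcript is also as deposited.

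Of the 69691 features, 43346 are genes. GENCODE M21 supplied positions on mm10 and, by identifier without its version, a symbol for 42462. Features outside annotated genes held 2.92% and 4.43% of expected counts. TPM was not changed. Detection means 1 TPM in both libraries. Ratios divide replicate 2 by replicate 1 on the log2(TPM + 1) scale, over genes with a mean of at least 1 TPM, which understates the change of low genes. No test between conditions was possible. Expected counts were rounded for binomial intervals (95%) and for TMM scaling in edgeR 4.0.16 and size factors in DESeq2 1.42.0, both under R 4.3.3. Complete coding transcripts are protein-coding ones in the GENCODE basic set. The ratio step was tested on simulated data. Scripts ran in Python 3.11.15 with scipy 1.17.1, pandas 2.3.3 and numpy 2.4.6; figures used matplotlib 3.10.9. The members and lists were chosen with earlier results of these data known. Named genes were all members, the 2 highest of each list of related genes and those at least 2-fold apart, with marker lists and a few of the rest given as counts, and the highest of each family with a detected gene; further genes were named after their values were seen. No gene with a like pattern was sought, since 2 libraries of 1 group hold none. Of the listed genes, 1 is not reported here and was left out of the list counts. Junction and contig lists on mm9 were not used here.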

Additional observations from a re-analysis of the deposited data

How the results depend on the processing

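The direction of 2 members changed under some alternatives. By TPM Naaladl1 and Xpnpep2 were lower in replicate 2. The log2 ratio of Naaladl1 became 0.12 with FPKM, 0.12 with TMM-scaled counts, 0.13 with median-ratio size factors, 0.12 as a share of expected counts and 0.11 relative to the epithelium list. That of Xpnpep2 became 0.069 with TMM, 0.074 with size factors and 0.064 as a share of counts, settings that also leave out the length correction; it stayed negative with FPKM, at -0.29, and relative to the epithelium list, at -0.30. The median log2 ratio of the members was -0.64 by TPM, -0.47 with FPKM, with TMM and as a share of counts, -0.46 with size factors, -0.67 without mitochondrial genes and spike-ins, -0.61 for complete coding transcripts and -0.48 relative to the epithelium list. With TMM the median of all genes moved from -0.14 to 0.01, and 69.4% of the genes 2-fold apart were lower in replicate 2 in place of 79.1%. The share of all genes at least 2-fold apart, 5.64%, ranged from 1.85% with no filter on low values and 3.09% with a pseudocount of 5 to 8.40% with a pseudocount of 0.1. Mme and Ace were at least 2-fold lower in replicate 2 under all 12 alternatives for the ratio; with mitochondrial genes and spike-ins left out of TPM Enpep joined them, which made 3. Shares of expected counts, complete coding transcripts and the epithelium list were chosen after seeing the data. By replicate 2 alone 5 members, and by replicate 1 alone 6, kept their place in the order by mean TPM, and the summed level ranged from 3992 to 5443 TPM. A ratio needs both libraries, so leaving one out gives none. At a minimum of 5 TPM 8 members were detected, and the share of all genes at that minimum is not given here. No paired analysis was possible because there is 1 group. Mme, with 538 expected counts in replicate 2, is where depth limits the transcript shares.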
